A study of Mus musculus with 26 samples.

Results

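Mice that lacked PGC-1a in skeletal muscle by their label and had been calorie restricted were compared with control-diet mice that kept the gene. The comparison used 13 of the 26 arrays of the study: the 7 arrays titled 'CR diet MKO' and the 6 arrays titled 'Control diet FLOX', each from 1 mouse. It asks which transcripts the diet brought back to the level of the fed control mice, and which it carried further away, when PGC-1a is deleted. The 7 control-diet MKO mice, which share the genotype of the first group and the diet of the second, served to divide the difference into steps, and the 6 CR FLOX mice showed how the diet acted where the gene was intact. All were individually housed littermates of mixed C57/BL6 and 129 background, with floxed PGC-1a alleles in the controls (FLOX) and a knockout confined to skeletal muscle in the others (MKO). Every mouse ate AIN-93M diet freely for at least 10 days before it was allotted to a diet. Control-diet mice then received 90% of their own intake for the 12 weeks of the study. CR mice received 80% for 1 week and thereafter AIN-93M 40% CR diet at 60% of their intake for about 11 weeks. RNA came from TA/EDL muscles, by the usual abbreviation the tibialis anterior and extensor digitorum longus, fast-twitch muscles of the lower leg. The age and sex of the mice and what drove the deletion were not given, and cells of the muscle other than fibres keep the gene.

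PGC-1a is a transcriptional coactivator: it binds no DNA itself and acts through partner factors such as the estrogen-related receptor ERRa (Esrra), nuclear respiratory factors and PPARs. It is known in muscle for raising the genes of oxidative phosphorylation, the TCA cycle and fatty acid oxidation, which are nuclear genes whose proteins work in mitochondria. Calorie restriction lowers the supply of nutrients and is known to change fuel use, growth signalling and the connective tissue of many organs.

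Each probe set (a group of short array probes for 1 transcript) had 1 deposited intensity per mouse, and differences are given as log2 values of the intensity + 16, with the standard error and the adjusted p of a limma fit over 14854 genes and all 26 arrays. A gene was called at an adjusted p under 0.05. The net difference is CR MKO minus control-diet FLOX. It is the sum of a genotype step, control-diet MKO minus control-diet FLOX, and a diet step, CR MKO minus control-diet MKO. Because the steps share the control-diet MKO arrays, which enter them with opposite signs, the classes built from both steps are a description.

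The samples were muscle by their transcripts. Over 12 fibre genes, summed intensity was 272838 to 282683 in control-diet FLOX and 274327 to 287531 in CR MKO mice, and the median net difference of these genes was 0.02. All 5 probe sets of Ppargc1a, the targeted gene, were brighter in CR MKO mice, by 1.66- to 1.99-fold. For the probe set taken for the gene, intensity was 797 to 985 (median 923) in control-diet FLOX, 1244 to 2359.6 (median 1425) in control-diet MKO and 1473 to 1966 (median 1641) in CR MKO mice. All 7 CR MKO mice lay above all control-diet FLOX mice, and the net difference was 0.86 ± 0.11 (adjusted p = 9.99e-07) by limma. Whether these probe sets fall inside the deleted exons is not stated in the sources used here. A probe outside the deleted region says nothing about the deletion, so the mice are called MKO by label alone. One CR MKO mouse, number 6, stood apart in slow fibre transcripts: its Myh7 (slow myosin heavy chain) intensity was 2929, against 308 to 751 in the other 6. Control-diet FLOX mouse 1 was the highest of its group, with 1036, and control-diet MKO mouse 4 of its own, with 1242. Counts of returned genes are also given without these 3 mice, a choice made after seeing the data.

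**Figure D1:**
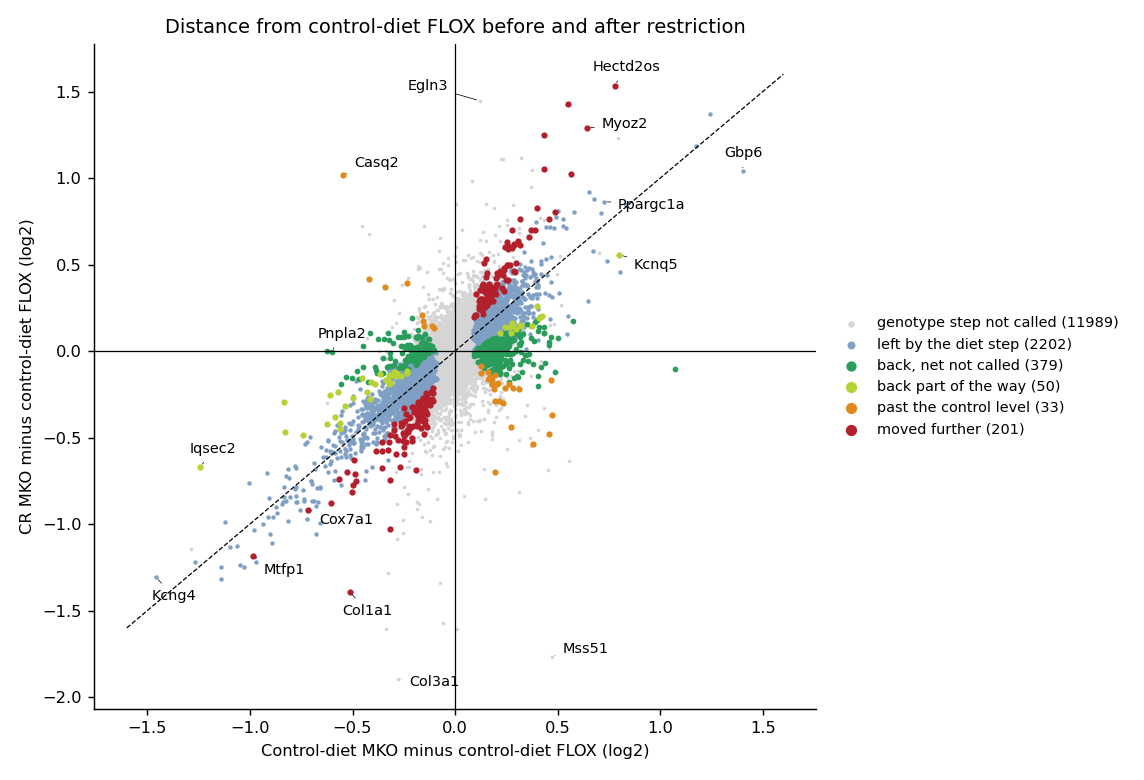
Each point is 1 of the 14854 genes, with its distance from control-diet FLOX in control-diet MKO mice on the horizontal axis and in CR MKO mice on the vertical axis (both log2). Points on the dashed line kept their distance under the diet, points on the horizontal line are back at the control level, and colours give the classes with their number of genes, such as 379 genes back with no net difference called and 201 moved further.

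The restricted knockout muscle differed widely from the fed control muscle. Of 14854 genes, 4439 were called (29.9%), 1931 higher (13.0%) and 2508 lower (16.9%). Most of these differences were small: 323 genes differed by at least 0.5 log2, 103 upward and 220 downward. For 1996 genes (13.4%) no CR MKO mouse overlapped any control-diet FLOX mouse, with 862 higher (5.8%) and 1134 lower (7.63%). Over all genes the median net difference was -0.02.

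In the genotype step 2865 genes (19.3%) were called, 1345 higher (9.05%) and 1520 lower (10.2%), and these are the genes the diet could bring back or carry further. The diet step was called for 2246 genes (15.1%), 986 higher (6.64%) and 1260 lower (8.48%). It moved 462 of the 2865 back (16.1%, or 3.11% of all genes tested) and 201 further (7.02%, or 1.35% of all), and for the remaining 2202 (76.9%) it was not called. After the diet step, 379 of the 462 genes had no net difference called. For 273 of those 379, the 95% interval of the net difference lay within 0.2 log2 of 0 on both sides. That bound is about as large as the median size of their genotype step, 0.204 over the 379 genes. Such an interval was also found for 371 of the 2202 genes left by the diet step, so it does not show a return by itself. Another 50 of the 462 genes came part of the way and were still called on the side of the knockout. The last 33 of the 462 went past the control level and were called on the other side. Of the 1345 genes that the genotype step raised 287 moved back (21.3%, or 1.93% of all genes) and 104 further (7.73%, or 0.7%). Of the 1520 it lowered 175 moved back (11.5%, or 1.18% of all genes) and 97 further (6.38%, or 0.653%), and the difference between these shares was not tested. Without the 3 mice rich in slow fibre transcripts the number of returned genes was 254, of which 223 had no net difference called, 18 stayed on the knockout side and 13 crossed to the other. The number moved further was then 156.

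Energy genes of mitochondria stayed below the control level as a group. Of 75 tested subunits of the respiratory chain and ATP synthase, 71 were lower in the genotype step and 64 in the net difference, and none was higher in either. Their median was -0.23 in the genotype step, 0.0 in the diet step and -0.24 net, where all genes had -0.02, 0.0 and -0.02. The diet step was called for 9 of the 75, 6 downward and 3 upward. Of the 71 lowered subunits 3 moved back, 6 moved further and 62 were left. Of all 1520 genes that the genotype step lowered, 11.5% moved back, 6.38% moved further and 82.1% were left. Adding the TCA cycle and fatty acid oxidation, 94 of 110 genes were lower and none higher, with 10 back and 7 further among the 104 that the genotype step had lowered. Without the 3 mice rich in slow fibre transcripts 3 of 102 were back and 6 further, the 3 all in fatty acid oxidation, and the respiratory chain and ATP synthase had 0 back and 5 further. With each array centred on its median the 6 lists had 6 back and 6 further.

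Mtfp1 and Cox7a1, with Col1a1 and Serpinh1, had the largest net falls among the 97 genes carried further down. Mtfp1 encodes an inner-membrane protein that promotes mitochondrial fission. Its intensity was 1699 to 2092 (median 1888) in control-diet FLOX, 867 to 1011 (median 926) in control-diet MKO and 780.3 to 886 (median 804) in CR MKO mice. The CR MKO mice were all far below the control range, and 6 of the 7 were also below every control-diet MKO mouse. Its net difference was -1.19 ± 0.046 (adjusted p = 4.44e-16) by limma, a 2.27-fold lower level, made up of -0.99 in the genotype step and -0.20 in the diet step. In FLOX mice the diet difference was 0.11 ± 0.047 (adjusted p = 0.14). Cox7a1, the heart and muscle isoform of a cytochrome oxidase subunit, had intensities of 9663 to 10202 (median 9927) in control-diet FLOX, 5564 to 6837 (median 5840.4) in control-diet MKO and 4767 to 5861 (median 5202) in CR MKO mice. No mouse of either knockout group reached the control range, and 6 of the 7 CR MKO mice were below every control-diet MKO mouse. The net difference was -0.92 ± 0.045 (adjusted p = 8.18e-14), of which -0.72 belonged to the genotype step and -0.20 to the diet step. Its ubiquitous counterpart Cox7a2 came back: it had 10889 to 12000.1 (median 11525) in control-diet FLOX, 9617 to 10953 (median 10532) in control-diet MKO and 10741 to 12310.3 (median 11236) in CR MKO mice. Of the CR MKO mice 4 were within the control range, 2 below it and 1 above it. Its net difference was at 0, with a 95% interval of -0.082 to 0.082, after -0.14 and 0.14 in the steps. Its second probe set gave -0.14 and was called lower, and Cox7a2 was not in the returned class without the 3 mice rich in slow fibre transcripts or with each array centred on its median.

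Complex I, which takes electrons from NADH, had 28 of 33 subunits lower and none higher, with a median of -0.25. Ndufv1, which carries the NADH site, was at 9263 to 9817 (median 9419.7) in control-diet FLOX and 6985 to 7905 (median 7462) in CR MKO mice, and Ndufa4, counted here although it has also been placed in complex IV, was at 11778 to 12421 (median 12063) and 9055 to 9846 (median 9636). For both genes the groups were fully apart, with net differences of -0.34 ± 0.033 (adjusted p = 1.55e-08) and -0.35 ± 0.029 (adjusted p = 1.67e-09) by limma. Almost all of this lay in the genotype step (-0.34 and -0.32). Ndufa13, Ndufb2 and Ndufs5 moved further, and no complex I subunit moved back. With averaged probe sets 1 moved back, and with quantile normalization 2. Complexes II and III with cytochrome c had all 14 of 14 genes lower, median -0.25, and the diet step was called for none of them. The Rieske iron-sulfur protein Uqcrfs1 had a net difference of -0.28 ± 0.029 (adjusted p = 6.79e-08) and the core protein Uqcrc1 -0.37 ± 0.041 (adjusted p = 1.63e-07). In complex IV 9 of 12 subunits were lower, median -0.23, led by Cox7a1 and by Cox6c at -0.33 ± 0.029 (adjusted p = 3.24e-09). Cox6a2, the muscle isoform of another cytochrome oxidase subunit, was lower in the genotype step (-0.25 ± 0.050, adjusted p = 0.000819) and was not called net (-0.11 ± 0.050, adjusted p = 0.0878). Of its 2 probe sets, at -0.13 and -0.11 net, 1 was called lower. Under 3 of 39 alternatives its net difference was called lower, with a limma adjusted p down to 0.0312.

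ATP synthase had 13 of 16 genes lower, with a median of -0.19, and under the diet 2 of its members moved back and 1 further, or 0 and 1 without the 3 mice rich in slow fibre transcripts. Atp5g1, 1 of several genes for the membrane c subunit, was at 12354 to 13993 (median 13336) in control-diet FLOX, 7987 to 9895 (median 9018) in control-diet MKO and 9288 to 10238 (median 9951) in CR MKO mice. Of the 7 CR MKO mice 5 were above every control-diet MKO mouse, and all were still below the control range. The diet step of 0.14 ± 0.040 (adjusted p = 0.0132) left a net difference of -0.42 ± 0.041 (adjusted p = 2.42e-08) by limma. Atp5e, the epsilon subunit, moved the other way, from 9457 to 9977 (median 9704) in control-diet FLOX through 7063 to 8737 (median 7926) in control-diet MKO to 6302 to 7364 (median 7109.7) in CR MKO mice. No CR MKO mouse reached the control-diet FLOX range, and the net difference was -0.46 ± 0.045 (adjusted p = 2.1e-08). TCA cycle and pyruvate dehydrogenase genes were lower in 16 of 17 cases, median -0.30. Mdh2, mitochondrial malate dehydrogenase, had a net difference of -0.31 ± 0.026 (adjusted p = 1.5e-09), and Idh3g, a regulatory subunit of NAD-dependent isocitrate dehydrogenase, -0.35 ± 0.031 (adjusted p = 4.25e-09). Idh2, the NADP-dependent enzyme, was the single member that came back, with -0.39 in the genotype step, 0.28 in the diet step and -0.11 ± 0.099 (adjusted p = 0.446) net. It was in the returned class in 11 of the 26 fits that left out 1 mouse, and not without the 3 mice rich in slow fibre transcripts. A second probe set of Idh2 gave 0.06 and was not called.

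Fatty acid oxidation had the largest count of returns among the 6 energy lists. The genotype step lowered 17 of 18 genes, with a median of -0.37, and the diet moved 6 of the 17 back (35.3%, against 11.5% of all genes that the genotype step lowered) and none further, leaving 14 lower net with a median of -0.20. Those 6 were Acadl, Decr1, Echs1, Eci1, Etfa and Etfb, all chosen after their values were seen. A second probe set of Decr1 gave -0.26 net and was called lower, against -0.08 for the one used. Acadl, long-chain acyl-CoA dehydrogenase, was at 7177 to 8379.9 (median 8217) in control-diet FLOX, 4669 to 6426 (median 5442) in control-diet MKO and 6886 to 7459 (median 7222) in CR MKO mice. Every CR MKO mouse was above every control-diet MKO mouse, and the CR MKO range reached into the lower part of the control range. The diet step was 0.38 ± 0.060 (adjusted p = 7.92e-05) and the net difference -0.15 ± 0.062 (adjusted p = 0.0726) by limma. Under 5 of 39 alternatives the net difference of Acadl was called lower, with an adjusted p down to 0.0101. Acaa2, the thiolase that ends each round of the pathway, was left low, at 3494 to 4049 (median 3632) in control-diet FLOX against 2399.5 to 2663 (median 2540.1) in CR MKO mice without overlap, with a net difference of -0.55 ± 0.053 (adjusted p = 1.63e-08). Acads, the short-chain dehydrogenase, was also left, at -0.53 ± 0.059 (adjusted p = 1.67e-07). The count of 6 was 4 without CR MKO mouse 6 and 3 without the 3 mice rich in slow fibre transcripts.

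**Figure D2:**
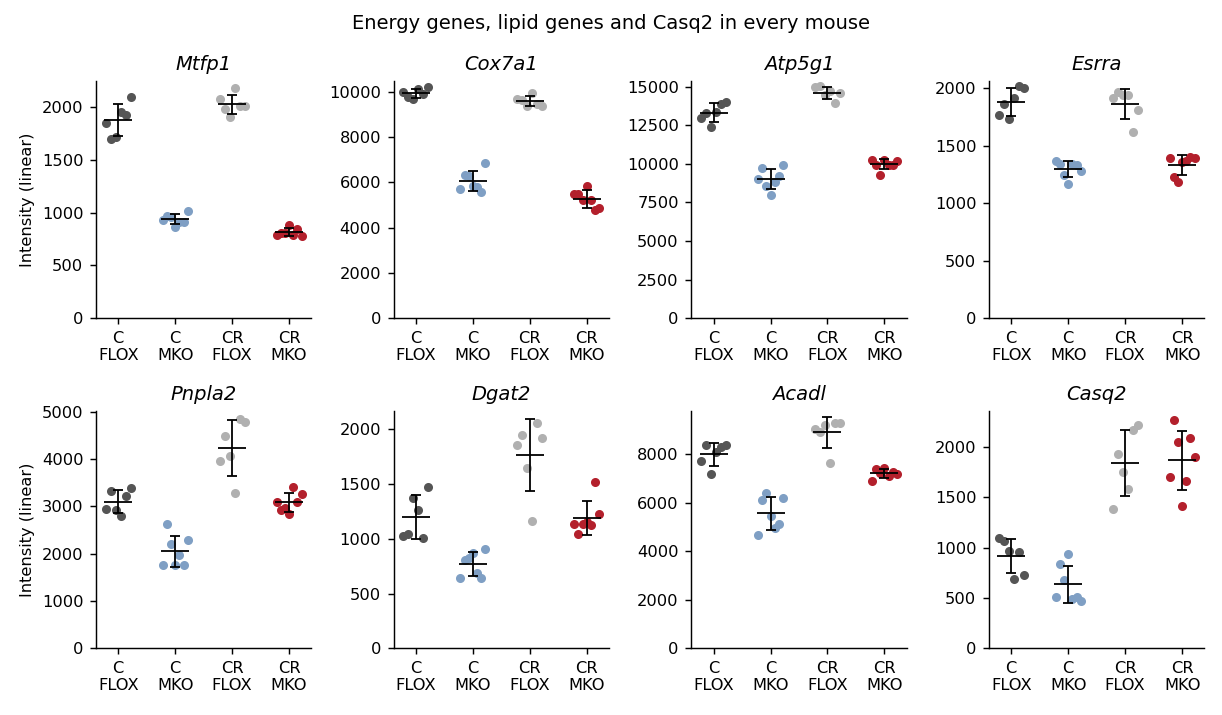
Intensity on a linear scale starting at 0 for 8 genes in every mouse of the 4 groups, with bars for the mean and SD of each group. Mtfp1, Cox7a1, Atp5g1 and Esrra stayed below control-diet FLOX in CR MKO mice, Pnpla2 and Dgat2 came back to its level, Acadl came close to it, and Casq2 went past it.

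Proteins of the mitochondrial ribosome, which translates the few genes of the mitochondrial genome, were mixed. Of 76 tested, 37 were lower in the genotype step, and in the net difference 22 were lower (28.9%) and 6 higher (7.89%), with a median of -0.07. Over all genes 16.9% were lower net and 13.0% higher. The diet moved 10 of the 37 back and 1 further. Of all genes that the genotype step lowered, 11.5% moved back and 6.38% further. Mrpl45 (-0.35 ± 0.041, adjusted p = 3.74e-07) and Mrpl42 (-0.27 ± 0.034, adjusted p = 9.1e-07) had the smallest net p by limma and were left by the diet step. The count of 10 fell to 2 without the 3 mice rich in slow fibre transcripts. It was 4 with each array centred on its median or without control-diet MKO mouse 4, 5 without control-diet FLOX mouse 1 or 5, and 6 without control-diet FLOX mouse 4, without CR MKO mouse 2 or with only the arrays compared. The 6 higher genes were 3 without CR MKO mouse 2, CR MKO mouse 7 or control-diet FLOX mouse 2.

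Among 20 coactivators and partner factors of PGC-1a, 4 were higher and 5 lower, with a median of 0.02. Esrra, the receptor through which PGC-1a reaches many oxidative genes, was at 1729 to 2018 (median 1884) in control-diet FLOX, 1168 to 1368 (median 1335) in control-diet MKO and 1183 to 1405 (median 1364) in CR MKO mice. The control mice were all above both knockout groups, which overlapped each other. Its net difference was -0.49 ± 0.052 (adjusted p = 6.44e-08) by limma, almost the same as its genotype step of -0.53. A second probe set of Esrra gave -0.03 and was not called. Perm1, a muscle regulator that PGC-1a and estrogen-related receptors induce, had -0.31 ± 0.087 (adjusted p = 0.00808), with neither step called, and an adjusted p of 0.0574 without the 3 mice rich in slow fibre transcripts. The number of lower factors was 3 without those mice or with arrays centred on their medians, and the number of higher factors was 2 when the probe sets of a gene were averaged.

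Promoter letters of the energy genes are shown because estrogen-related receptors are known to bind the motif AAGGTCA, and a longer form TCAAGGTCA, which contains it. Both were searched on both strands from 250 bases before to 50 after each RefSeq start (GRCm38.p6). A window was matched for 95 of the 110 energy genes. The shorter motif was present in 10 of their 105 windows (9.52%) and in 4.72% of all 32851 windows, and the longer in 2 (1.9%) and in 0.423%. A match is letters only, not a bound site. Upstream stretches of 4 genes follow, read 5′ to 3′ along the gene, with the motif in capitals (as TGACCTT or TGACCTTGA where it lies on the opposite strand). They are chr2:73911332-73911418 (minus strand) for Atp5g3, another gene of the c subunit, chr3:153944846-153944893 (minus strand) for Acadm, medium-chain acyl-CoA dehydrogenase, chr4:156215685-156215771 (plus strand) for Perm1 and chr6:39592344-39592430 (plus strand) for Ndufb2, a complex I subunit.
Atp5g3: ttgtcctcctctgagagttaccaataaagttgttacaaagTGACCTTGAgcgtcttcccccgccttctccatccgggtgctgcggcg
Acadm: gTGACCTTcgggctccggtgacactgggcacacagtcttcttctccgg
Perm1: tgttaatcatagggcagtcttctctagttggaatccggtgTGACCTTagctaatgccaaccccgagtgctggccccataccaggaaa
Ndufb2: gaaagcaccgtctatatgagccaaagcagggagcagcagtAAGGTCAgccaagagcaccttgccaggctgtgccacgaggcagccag
Their net differences were -0.26 ± 0.028 (adjusted p = 1.42e-07) for Atp5g3, -0.17 ± 0.038 (adjusted p = 0.000959) for Acadm, -0.31 for Perm1 and -0.49 ± 0.058 (adjusted p = 4.33e-07) for Ndufb2 by limma. Atp5g3 and Acadm were left by the diet step and Ndufb2 moved further. Cox7a1, Mtfp1 and Atp5g1 had no match in the 250 bases before their starts.

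Lipid genes were among those back with no net difference called. Dgat2 and Pnpla2 were chosen for description after their values were seen. Pnpla2 encodes the lipase that starts the breakdown of stored triglyceride. It was at 2805 to 3379 (median 3079) in control-diet FLOX, 1752 to 2618 (median 1976) in control-diet MKO and 2831 to 3406 (median 3085) in CR MKO mice, against 3275 to 4852 (median 4273) in CR FLOX mice. All 7 control-diet MKO mice were below the control range, and of the CR MKO mice 6 were within it and 1 above it. The steps were -0.60 ± 0.089 (adjusted p = 2.01e-05) and 0.59 ± 0.085 (adjusted p = 2.9e-05) by limma, and the net difference was -0.007 ± 0.089 (adjusted p = 0.966), with a 95% interval of -0.19 to 0.17. Dgat2, which makes triglyceride from diacylglycerol, gave 1005 to 1470.2 (median 1153) in control-diet FLOX, 638 to 907 (median 808) in control-diet MKO, 1038 to 1514 (median 1131) in CR MKO and 1158 to 2057 (median 1885) in CR FLOX mice. Again 6 CR MKO mice were within the control range and 1 above it. Its steps were -0.62 ± 0.12 (adjusted p = 0.000452) and 0.62 ± 0.11 (adjusted p = 0.000434), and the net difference was -0.002, with a 95% interval of -0.24 to 0.24. The diet difference in FLOX mice was 0.44 ± 0.092 (adjusted p = 0.00243) for Pnpla2 and 0.55 ± 0.12 (adjusted p = 0.00451) for Dgat2. Against CR FLOX mice the restricted knockout was at -0.45 ± 0.089 (adjusted p = 0.000631) for Pnpla2 and -0.55 ± 0.12 (adjusted p = 0.00153) for Dgat2.

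The genes with the largest genotype falls in the returned class came only part of the way. Iqsec2, an exchange factor for ARF GTPases, was at 569 to 779 (median 671) in control-diet FLOX, 220.5 to 352 (median 275) in control-diet MKO and 322 to 546 (median 420.5) in CR MKO mice. All CR MKO mice stayed below the control range, and 6 of 7 were above every control-diet MKO mouse. Its genotype step of -1.24 and diet step of 0.57 left -0.67 ± 0.099 (adjusted p = 9.8e-06) by limma, and a second probe set gave -0.15 net, also called. Lrg1, a secreted leucine-rich glycoprotein, had -0.84 and 0.54 in the steps and -0.30 ± 0.077 (adjusted p = 0.00427) net. Slc41a1, a magnesium transporter, kept -0.47 ± 0.088 (adjusted p = 0.000189), and Tstd3, a rhodanese-domain protein, kept -0.48 ± 0.058 (adjusted p = 5.66e-07). From above, Kcnq5, a voltage-gated potassium channel, was at 324 to 463 (median 392) in control-diet FLOX, 609 to 771 (median 695) in control-diet MKO and 489 to 674 (median 556) in CR MKO mice, a partial return to 0.56 ± 0.083 (adjusted p = 1.22e-05); 1 of its 3 probe sets had the opposite sign. The other genes named from above ended with no net difference called. Smarca1, an ATPase of chromatin remodelling, went from 0.57 to 0.17 ± 0.13 (adjusted p = 0.323), Neto2, an auxiliary protein of kainate receptors, from 0.50 to 0.073 ± 0.14 (adjusted p = 0.733), and Aurka, a mitotic kinase, from 0.48 to -0.12 ± 0.13 (adjusted p = 0.507). Of the 26 fits that left out 1 mouse, Kcnq5 was in the returned class in 17, Smarca1 in 21, Neto2 in 22 and Aurka in 26. A second probe set of Neto2 gave -0.03 net and was not called.

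Casq2 and Kcnab1 are examples of the 33 genes that crossed the control level, Casq2 chosen after its values were seen. Casq2, the calsequestrin of heart and slow fibres that stores calcium in the sarcoplasmic reticulum, was at 686 to 1093 (median 960.5) in control-diet FLOX, 469 to 940.2 (median 516) in control-diet MKO and 1413 to 2266 (median 1903) in CR MKO mice. All 7 CR MKO mice were above every control-diet FLOX mouse, while the control-diet MKO mice had been lower on average. The steps were -0.55 ± 0.15 (adjusted p = 0.0125) and 1.57 ± 0.15 (adjusted p = 2.04e-07) by limma, and the net difference was 1.02 ± 0.15 (adjusted p = 1.35e-05). In CR FLOX mice the gene was at 1389 to 2217 (median 1839.6), and the CR MKO minus CR FLOX difference was 0.028 ± 0.15 (adjusted p = 0.93). Kcnab1, an auxiliary subunit of potassium channels, had 0.47 in the genotype step, -0.64 in the diet step and -0.17 ± 0.049 (adjusted p = 0.0109) net, from an intensity of 311 to 368 (median 333) in control-diet FLOX to 274 to 338 (median 292) in CR MKO mice, of which 5 were below the control range and 2 within it.

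**Figure D3:**
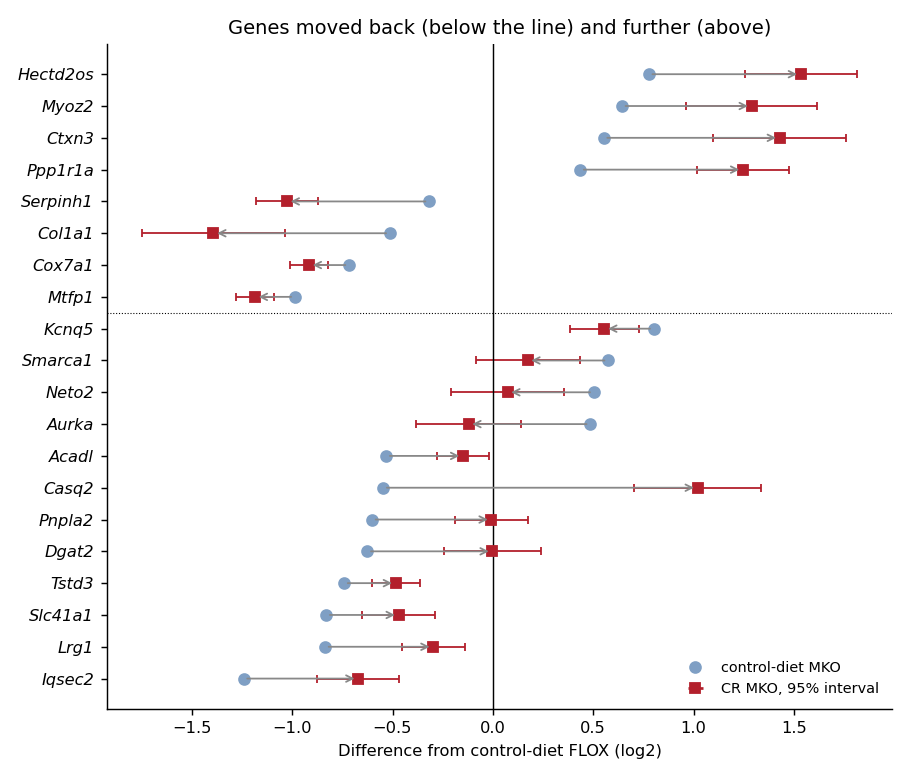
For each of 20 genes the circle is the distance of control-diet MKO from control-diet FLOX and the square that of CR MKO, both as log2 values with a 95% interval on the square and an arrow for the diet step. Arrows toward the vertical line at 0 are returns, with Pnpla2 and Dgat2 ending on the line and Casq2 beyond it, and arrows away from it are genes moved further, such as Hectd2os and Col1a1. Kcnq5 and Smarca1 were not in the returned class without the 3 mice rich in slow fibre transcripts.

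Among genes moved further upward, the ones with the largest net rise were Hectd2os, Ctxn3, Myoz2 and Ppp1r1a. Hectd2os, an opposite-strand transcript at the Hectd2 gene, was at 137 to 188 (median 154) in control-diet FLOX, 212 to 369 (median 252) in control-diet MKO and 408 to 588 (median 465.7) in CR MKO mice. Its control-diet FLOX values were dim, all below the array medians of 212 to 232. Their mean alone would not have passed the filter, which the gene passed through the groups where it was higher. Each knockout group was entirely above the controls, and the restricted mice were entirely above the fed knockouts. Its net difference was 1.53 ± 0.14 (adjusted p = 4.27e-09) by limma, in nearly equal parts from genotype (0.78) and diet (0.76). Ppp1r1a, an inhibitor of protein phosphatase 1, was at 746 to 1276 (median 1185) in control-diet FLOX and 1820.4 to 3025 (median 2726) in CR MKO mice without overlap, with 1.25 ± 0.11 (adjusted p = 5.71e-09) net. Ctxn3, a small membrane protein of the cortexin family, had 1.43 ± 0.16 (adjusted p = 2.11e-07). Myoz2, a Z-disc protein of slow fibres that binds calcineurin, had 1.29 ± 0.16 (adjusted p = 7.38e-07). Stbd1, which ties glycogen to membranes, was also carried further, to 1.05 ± 0.11 (adjusted p = 3.86e-08).

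Other large net rises were called in the diet step and not in the genotype step. Egln3, a prolyl hydroxylase that senses oxygen, was at 617 to 1017 (median 797) in control-diet FLOX and 1560.2 to 3783 (median 1811) in CR MKO mice. The ranges did not overlap, and CR MKO mice 6 and 7 were the highest, at 3783 and 3231 against 1560.2 to 2233 in the other 5. The net difference of Egln3 was 1.45 ± 0.23 (adjusted p = 2.12e-05) by limma, with 0.12 in the genotype step, which was not called. Abca1, which exports cholesterol, had 1.12 ± 0.12 (adjusted p = 5.21e-08) for the brightest of 3 probe sets, which were all called and ran from 0.50 to 1.12. Fbp2, the fructose bisphosphatase of muscle, had 1.11 ± 0.13 (adjusted p = 2.33e-07), and Sh3rf2, a RING-type ubiquitin ligase, 1.11 ± 0.18 (adjusted p = 2.57e-05). All 3 genes were called in the diet step. The genotype step of Abca1 was 0.32 (adjusted p = 0.0511), and the diet difference of Fbp2 in FLOX mice was 0.37 (adjusted p = 0.0744) by limma. CR MKO minus CR FLOX was 0.54 (adjusted p = 0.00125) for Abca1 and 0.74 (adjusted p = 9.92e-05) for Fbp2. It was not called for Egln3 (0.28) or Sh3rf2 (0.16).

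Slow fibre genes of the sarcomere were higher in 6 of 12 cases and lower in none, with a median of 0.51. Myl3 and Myl2, the light chains of slow myosin, had 1.37 ± 0.23 (adjusted p = 5.64e-05) and 1.23 ± 0.35 (adjusted p = 0.00884) by limma, and Csrp3, a LIM protein of the Z-disc, 1.19 ± 0.41 (adjusted p = 0.0312). Myl3 was at 998 to 3476 (median 2094) in control-diet FLOX and 4283 to 6856 (median 5619) in CR MKO mice, without overlap. Mybpc1, slow myosin-binding protein C, was at 14689.5 to 16492 (median 15167) and 19157 to 21393 (median 19651), also without overlap, with 0.36 ± 0.039 (adjusted p = 9.28e-08). Slow myosin heavy chain itself was not called: Myh7 was at 249 to 1036 (median 307) in control-diet FLOX and 308 to 2929.5 (median 394) in CR MKO mice, ranges that overlapped, with 0.57 ± 0.41 (adjusted p = 0.318). Without the 3 mice rich in slow transcripts 6 of 12 were again higher, with a median of 0.42, Myl2 was at 1.29, Myl3 at 1.49 and Myh7 at 0.46 (adjusted p = 0.224). The adjusted p of Csrp3 rose to as much as 0.109 when control-diet FLOX mouse 2 or 3 or CR MKO mouse 1, 4 or 6 was left out.

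Fast fibre sarcomere genes had 2 of 15 higher and 2 lower (13.3% each), with a median of 0.0. These shares were near the 13.0% higher and 16.9% lower of all genes. Myh2, the myosin heavy chain of fast oxidative fibres, was at 11659.7 to 18311 (median 15677) in control-diet FLOX and 20201 to 22914 (median 21722) in CR MKO mice, all above the controls, with 0.52 ± 0.12 (adjusted p = 0.00128) by limma, most of it from the diet step (0.41). Mylpf, the regulatory light chain of fast fibres, had 0.091 ± 0.025 (adjusted p = 0.00684). The 2 lower genes were not called in several other fits, among them the replicate block, median centring and the fits that left out any 1 of CR MKO mice 3 to 7 or control-diet FLOX mouse 2, 3, 4 or 6. Developmental sarcomere genes were higher in 3 of 9 cases and lower in none, median 0.16, with the perinatal heavy chain Myh8 at 0.33 ± 0.079 (adjusted p = 0.00199) and the embryonic Myh3 at 0.29 ± 0.091 (adjusted p = 0.016), both left by the diet step. Genes of the neuromuscular junction had 4 of 17 higher and none lower, median 0.0, and 2 lower with averaged probe sets. Chrnb1, the beta subunit of the acetylcholine receptor, was at 732 to 877 (median 794) in control-diet FLOX and 1210.0 to 1426 (median 1307) in CR MKO mice, without overlap. The beta subunit had a net difference of 0.71 ± 0.065 (adjusted p = 8.51e-09) and the alpha subunit Chrna1 one of 0.46 ± 0.086 (adjusted p = 0.000198).

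Matrix genes were lower as a group. Of 34 extracellular matrix and collagen processing genes, 25 were lower and none higher, with a median of -0.37, against 16.9% lower over all genes. These falls lay in the diet step: the median was -0.06 in the genotype step and -0.37 in the diet step, and 26 of 34 were lower in the diet step. The diet difference in FLOX mice also had a median of -0.37, with 24 of 34 lower. Col3a1, a fibrillar collagen, was at 2591 to 3912 (median 3546) in control-diet FLOX, 1625 to 3796 (median 2694) in control-diet MKO and 496 to 1262 (median 881) in CR MKO mice. The CR MKO mice were all below both control-diet groups, and the net difference was -1.89 ± 0.23 (adjusted p = 7.38e-07) by limma. A second probe set of Col3a1 gave -0.99 and was also called. Col1a2 had -1.61 ± 0.21 (adjusted p = 1.67e-06) and Col4a1, of basement membranes, -1.09 ± 0.10 (adjusted p = 1.26e-08). The members Col1a1, Col6a1, Serpinh1 and Plod1 were already lower in the genotype step and moved further. Serpinh1, the chaperone of collagen in the endoplasmic reticulum, was at 1050.3 to 1389.7 (median 1085) in control-diet FLOX, 792 to 1016 (median 957) in control-diet MKO and 478 to 646 (median 560.5) in CR MKO mice. The 3 groups did not overlap, with the control-diet FLOX mice highest and the CR MKO mice lowest, and the net difference was -1.03 ± 0.074 (adjusted p = 1.47e-10). Col1a1 had -1.39 ± 0.17 (adjusted p = 8.4e-07). In bulk muscle, fewer cells of a type and less RNA per cell cannot be told apart.

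Markers of the cells that make and line this tissue moved beside the matrix. Of 15 fibroblast and tendon markers 12 were lower and 1 higher, with a median of -0.45. Their summed intensity was 10751 to 15288 in control-diet FLOX, 10803 to 14182 in control-diet MKO and 5773 to 10688 in CR MKO mice, so that no CR MKO mouse reached the other groups. Thy1 had -0.49 ± 0.061 (adjusted p = 9.35e-07) by limma. The single higher marker was Scx, a transcription factor of tendon, at 0.54 ± 0.076 (adjusted p = 4.54e-06). Of 20 endothelial markers 16 were lower and none higher, median -0.29, with sums of 14309 to 15858 in control-diet FLOX, 12663 to 14851 in control-diet MKO and 11408 to 13446 in CR MKO mice. Aplnr, the apelin receptor, was at 503 to 801 (median 695) in control-diet FLOX and 234 to 305 (median 258) in CR MKO mice, with -1.28 ± 0.13 (adjusted p = 4.03e-08) and a second probe set at -0.60, also called, and Emcn, endomucin, had -0.35 ± 0.045 (adjusted p = 1.12e-06). The part of these cells in the matrix result was not tested.

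Other marker lists moved less. Over all genes 13.0% were higher and 16.9% lower. Smooth muscle and pericyte markers had 1 of 9 higher (Abcc9, 0.30) and 2 lower (among them Tagln, -0.32), with a median of -0.09. Macrophage and leukocyte markers had 3 of 19 lower (15.8%, near the share of all genes) and none higher, median -0.10. Csf1r was at -0.33, with 1 of its 3 probe sets called, and Adgre1 at -0.16. Without CR MKO mouse 1, control-diet FLOX mouse 6 or control-diet MKO mouse 4, 5 of these markers were lower. With the replicate block 6 were lower. Their sums were 7431 to 8704 in control-diet FLOX and 6657 to 8027 in CR MKO mice. Adipocyte markers had 1 of 9 higher (Car3, 0.19, also abundant in muscle fibres) and 2 lower (among them Lipe, -0.26), median -0.16, and 4 lower without CR MKO mouse 1. The value of Car3 is that of its brightest probe set. Its 4 probe sets, all called higher, ran from 0.19 to 1.53. No gene was called among 3 erythroid (Hba-a1 at 0.10, Hbb-b2 at 0.15), 6 Schwann cell (Pmp22 at -0.24, S100b at -0.090) and 6 keratinocyte markers (Krt10 at 0.068, Krt1 at -0.10). Of 4 satellite cell markers Pax7 was lower (-0.26 ± 0.075, adjusted p = 0.0108 by limma) and Vcam1 had -0.078. A second probe set of Pax7 gave 0.02 and was not called, and 1 of 3 probe sets of Vcam1 was called lower. Skeletal muscle fibre markers had 3 of 12 higher and 3 lower, with Mb, myoglobin, at -0.15 and Ttn, titin, at 0.13.

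**Figure D4:**
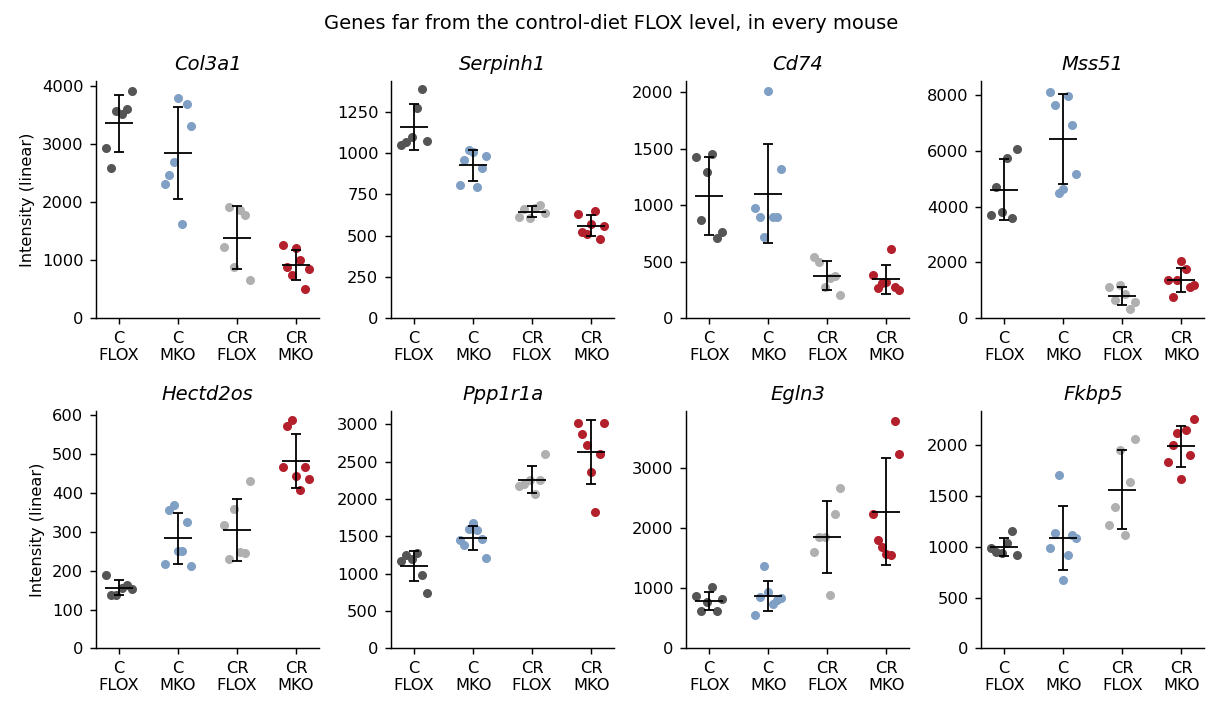
Intensity on a linear scale starting at 0 for 8 genes in every mouse of the 4 groups, with bars for the mean and SD of each group. Col3a1, Serpinh1, Cd74 and Mss51 were lower in CR MKO than in control-diet FLOX mice, and Hectd2os, Ppp1r1a, Egln3 and Fkbp5 were higher.

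Antigen display genes were lower after the diet. All 5 tested MHC class II genes were lower, with medians of -0.67 net, -0.07 in the genotype step and -0.63 in the diet step. The diet difference in FLOX mice had a median of -0.58, and all 5 were lower there too. Cd74, the invariant chain that escorts class II molecules, was at 706 to 1455 (median 1078) in control-diet FLOX and 246 to 612 (median 311) in CR MKO mice. No CR MKO mouse reached the lowest control mouse, and the net difference was -1.61 ± 0.24 (adjusted p = 1.13e-05) by limma. H2-Ab1, a class II chain, had -1.34 ± 0.17 (adjusted p = 1.39e-06), and its 3 probe sets, all called, ran from -1.34 to -0.52. The part of macrophages and other leukocytes, whose markers and sums are given above, was not tested. Of 21 MHC class I and interferon response genes 8 were lower (38.1%, against 16.9% of all genes) and 1 higher, median -0.17. The number lower was 4 without control-diet FLOX mouse 1 and 13 when only the arrays of both groups were fitted. Irf1, an interferon-induced factor, had -0.23 ± 0.048 (adjusted p = 0.000595). The higher gene, Gbp6, a GTPase of the interferon response, was at 336 to 609 (median 498) in control-diet FLOX, 1080.2 to 2386 (median 1196) in control-diet MKO and 751 to 1693 (median 805) in CR MKO mice. Both knockout groups were above the controls, with 1.04 ± 0.20 (adjusted p = 0.000201) net and 0.49 from a second probe set, also called.

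Among 16 glucocorticoid targets and metallothioneins 6 were higher (37.5%, against 13.0% of all genes) and 1 lower, median 0.33. Fkbp5, a co-chaperone of the glucocorticoid receptor, was at 915 to 1153 (median 966) in control-diet FLOX, 677 to 1706 (median 1086) in control-diet MKO and 1667 to 2253 (median 2002) in CR MKO mice. Every CR MKO mouse was above every control-diet FLOX mouse, with 0.98 ± 0.15 (adjusted p = 1.14e-05) by limma. The metallothionein Mt1, which binds zinc and copper, had 0.68 ± 0.20 (adjusted p = 0.012) and an adjusted p of 0.0668 without the 3 mice rich in slow transcripts, when 3 members of the list were higher. The lower gene was Pdk4, a kinase that inhibits the entry of pyruvate into the TCA cycle. It was at 4744 to 11971 (median 7305) in control-diet FLOX and 1537 to 4845 (median 2232) in CR MKO mice, with 6 of the 7 below the control range and 1 within it, and a net difference of -1.57 ± 0.38 (adjusted p = 0.00219).

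Pyruvate dehydrogenase kinases and lipid synthesis had 3 of 19 genes higher and 3 lower (15.8% each), where all genes had 13.0% and 16.9%. The list median was 0.04, and 7 were higher without control-diet FLOX mouse 3. Srebf1, a driver of lipid synthesis genes, had 0.74 ± 0.13 (adjusted p = 9.4e-05) and Pdp1, the phosphatase that switches pyruvate dehydrogenase on, 0.42 ± 0.079 (adjusted p = 0.000187) by limma. Glucose uptake and glycogen genes had 4 of 21 higher and 4 lower (19.0% each), median 0.0. Gbe1, the glycogen branching enzyme, was at 1453 to 2029 (median 1717) in control-diet FLOX and 2276 to 3338 (median 2895) in CR MKO mice, without overlap. Its net difference was 0.71 ± 0.11 (adjusted p = 2.58e-05), whereas Hk1, a hexokinase, had -0.24 ± 0.035 (adjusted p = 7e-06). Of 19 clock genes 6 were higher (31.6%) and none lower, median 0.05, with the repressor Cry2 at 0.43 ± 0.057 (adjusted p = 2.4e-06) and the nuclear receptor Rora at 0.36 ± 0.065 (adjusted p = 0.000115). Of 9 probe sets of Rora 7 had that sign and were called, and the lowest value was -0.11.

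Among 19 insulin, IGF and myostatin signalling genes 4 were higher (21.1%) and 7 lower (36.8%), median -0.14. Over all genes 13.0% were higher and 16.9% lower. Mss51, a zinc-finger protein of skeletal muscle mitochondria, was at 3587 to 6074 (median 4249) in control-diet FLOX, 4476 to 8108 (median 6907) in control-diet MKO and 758 to 2055 (median 1352) in CR MKO mice. Each CR MKO mouse was below all control-diet mice of both genotypes. The net difference was -1.77 ± 0.24 (adjusted p = 3.29e-06) by limma, with 0.47 in the genotype step, which was not called, and -2.24 in the diet step. The diet difference of Mss51 in FLOX mice was -2.60 ± 0.25 (adjusted p = 3.89e-07) by limma. Fstl1, a secreted follistatin-like glycoprotein, had -0.99 ± 0.15 (adjusted p = 2e-05), with -0.66 in the genotype step. In FLOX mice its diet difference was -0.71 ± 0.16 (adjusted p = 0.00466) by limma. CR MKO minus CR FLOX was -0.285 for Fstl1 (adjusted p = 0.224).

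Genes of protein breakdown and stress were mixed, where 13.0% of all genes were higher and 16.9% lower. Of 14 atrophy ligases and proteolysis genes 5 were higher and 4 lower, median -0.04, and 3 were higher with averaged probe sets. Ctsl, a lysosomal protease, had 0.46 ± 0.072 (adjusted p = 2.16e-05) and Gabarapl1, a protein of autophagosomes, -0.38 ± 0.058 (adjusted p = 1.37e-05) by limma. A second probe set of Ctsl gave 0.11 and was not called. Heat shock and chaperone genes had 6 of 24 higher and 5 lower, median 0.0, with Hspb3, a small heat shock protein of muscle, at 0.56 ± 0.070 (adjusted p = 9.82e-07) and Dnajb1, an HSP70 partner, at -0.25 ± 0.045 (adjusted p = 0.000103). Their number higher was 3 without CR MKO mouse 3 or control-diet FLOX mouse 2 or 3, and their number lower was 3 without CR MKO mouse 3, control-diet FLOX mouse 1 or the mice rich in slow transcripts. A second probe set of Dnajb1 gave -0.01 and was not called. The ATF4 and p53 stress response had 3 of 18 higher (16.7%) and 2 lower (11.1%), median -0.03, with Trp53inp1 at 0.45 ± 0.10 (adjusted p = 0.00156) and Gadd45b at -0.31 ± 0.086 (adjusted p = 0.00701), the latter with an adjusted p of 0.311 when its probe sets were averaged. A second probe set of Trp53inp1 gave 0.06 and was not called. Antioxidant enzymes had 2 of 18 higher and 7 lower, median -0.09. Sod2, the superoxide dismutase of mitochondria, was at 6182 to 6972 (median 6504) in control-diet FLOX, 4038 to 5099.8 (median 4352) in control-diet MKO and 3979 to 4691 (median 4347) in CR MKO mice. The knockout groups were both below the controls, with -0.60 ± 0.048 (adjusted p = 1.08e-09) net, and mitochondrial Prdx3 had -0.24 ± 0.037 (adjusted p = 1.88e-05).

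**Figure D5:**
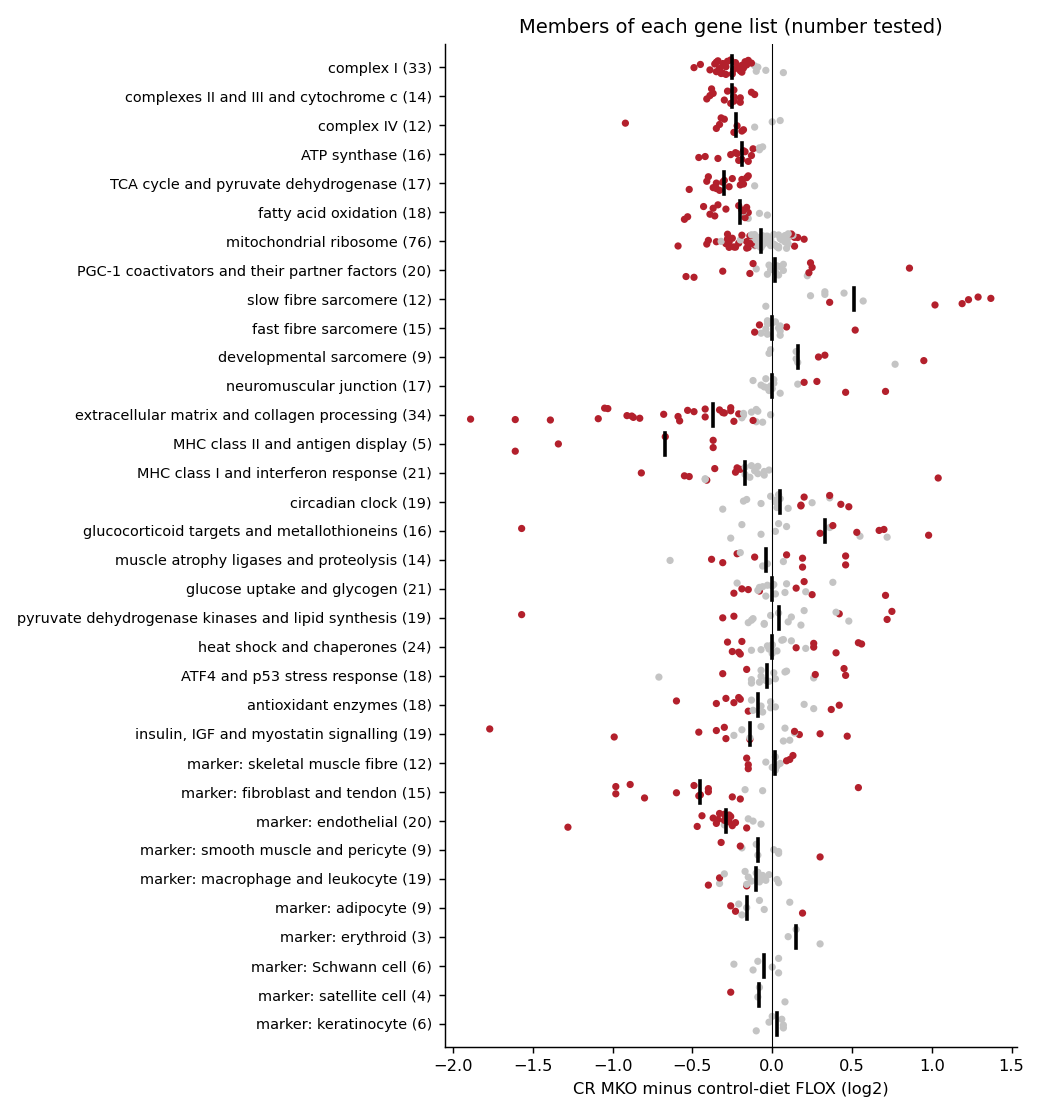
Each point is 1 tested gene of the list named at the left, with its number of tested genes, placed by its net difference (log2, CR MKO minus control-diet FLOX). Red points were called by limma and black ticks are list medians, which lie at -0.19 to -0.30 for the energy lists, -0.37 for the matrix and 0.51 for slow fibre genes.

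Other large net falls lay in the genotype step when divided through the control-diet MKO mice. Kcng4, a modifier subunit of potassium channels, was at 658 to 985 (median 824) in control-diet FLOX, 237 to 363 (median 284) in control-diet MKO and 281 to 349 (median 318) in CR MKO mice. The knockout groups overlapped each other and not the controls, with -1.31 ± 0.11 (adjusted p = 1.08e-09) by limma. Gramd3 (a GRAM-domain protein), Grik5 (a kainate receptor subunit) and Ube2f (a NEDD8-conjugating enzyme) had -1.32, -1.25 and -1.25. In FLOX mice their diet differences were -0.82 (adjusted p = 0.0376), -0.75 (adjusted p = 0.046) and -0.77 (adjusted p = 0.0556) by limma. CR MKO minus CR FLOX was -0.495, -0.50 and -0.47 for these genes, none called, and -1.61 (adjusted p = 1.74e-11) for Kcng4. All 3 genes were highest in the same control-diet FLOX mouse, number 2. A second probe set of Gramd3 gave -0.09 and was not called. Ccdc180 and Tmem41b, chosen after their values were seen, had -1.24 and -1.22 and were highest in that mouse too. The highest control-diet FLOX mouse exceeded the lowest 2.07- to 2.68-fold for these 5 genes. Other probe sets did not all show the fall: of 6 for Ube2f, 2 had the sign of the reported value and 1 of them was called, and of 6 for Tmem41b, 4 had its sign and 1 was called the opposite way.

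No gene was called for a departure from the sum of the separate effects of genotype and diet. By limma's interaction, the diet step in MKO minus the same step in FLOX, 0 of 14854 genes (0.0%) were called, the smallest adjusted p was 0.389, and 720 genes (4.85%) had an unadjusted p under 0.05. With the replicate block the count was also 0. The genes of smallest interaction p that were called net were Mtfp1 (-0.31 ± 0.065, adjusted p = 0.389), Kcnab1 (-0.34 ± 0.070, adjusted p = 0.389) and Tm6sf1, a membrane protein (-0.28 ± 0.063, adjusted p = 0.488). Each step was also set against its counterpart, which uses none of the same arrays. Of the 2246 genes called in the diet step, 2157 had that sign in CR FLOX minus control-diet FLOX (96.0%, against 71.6% of all genes), 970 were called there in that direction and none in the other, where 10.0% of all genes were called. Of the 2865 genes called in the genotype step, 2788 had that sign in CR MKO minus CR FLOX (97.3%, against 76.8% of all genes), 1633 were called in that direction and 1 in the other, where 17.3% of all genes were called.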

How the data were processed

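The authors deposited 1 intensity per probe set and array for 45101 probe sets on a linear scale. The sources used here do not give how background, probes and arrays were combined, nor scan batches. Array medians were 212 to 232 and minima 56.6 to 62.8. Arrays of a group correlated at 0.984 to 0.996, no 2 held identical values, and each array is 1 mouse per the labels, so p-values measure the spread between mice.

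From log2(intensity + 16), without further normalization, probe sets that name exactly 1 gene (34945) were kept where their mean passed the 30th percentile (log2 7.47). The brightest per gene gave 14854 genes, of which 6584 had several. Tests used limma 3.58.1 in R 4.3.3 with 1 mean for each of the 4 groups over all 26 arrays and Benjamini-Hochberg adjustment over all genes. On simulated data of this comparison the fit recovered 97 of 100 genes changed by 0.5 log2 and 100 of 100 changed by 1, with 11 false calls among 14854. Only CR MKO values were changed, and smaller changes were not simulated. The median steps of the returned genes were 0.215 (genotype) and 0.208 (diet), so the simulation does not cover the classes of return. Of 642 memberships in 34 gene lists, 590 were tested, 15 failed the filter and 37 lacked a probe set for that gene only.

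The genes and lists were chosen with earlier results of these data known. Named by rule were Ppargc1a, the 12 largest net rises and falls, the 4 largest up and down among genes moved back (by genotype step) and further (by net difference), the 2 members of smallest p in each list, and genes called net among the 3 of smallest interaction p; 17 more were chosen after their values were seen. Alternatives changed the pseudocount, filter, normalization, probe set rule, variance model, array weights, arrays fitted, threshold and replicate block, and left out each mouse. Promoter letters are from RefSeq.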

Additional observations from a re-analysis of the deposited data

Results flagged for a closer look

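Single mice stood apart from their group for 11 of the 228 gene and group pairs examined (4.82%), where chance alone gives about 1 in 20. A mouse was singled out when its gap to the nearest other mouse was large for the group's whole range (Dixon's criterion). Each value is an intensity, and none of these patterns was tested for a cause.

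Slow fibre transcripts set CR MKO mouse 6 apart. Its Myl2 intensity was 6363, against 1783 to 2412 in the other 6 mice, and its Myh7 intensity was 2929.5, against 308 to 751. Car3, an abundant carbonic anhydrase of slow fibres and fat cells, was lowest in the same mouse, at 25153 against 26905 to 28281.

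Mitochondrial genes gave the next group. In CR MKO mice Atp5e was lowest in mouse 2, at 6302 against 7039 to 7364, Atp5g1 was lowest in mouse 3, at 9288 against 9892 to 10238, and Idh3g was highest in mouse 4, at 8841 against 7939 to 8212. In control-diet FLOX mice Mdh2 was highest in mouse 6, at 16556 against 15881 to 16126, and Idh2 was lowest in mouse 5, at 2723 against 3571 to 4072.

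The others were in CR MKO mice. Mybpc1 was highest in mouse 1, at 21393 against 19157 to 20067. Pmp22, a myelin gene, was highest in that mouse too, at 1332 against 769 to 922. Emcn was lowest in mouse 3, at 336.8 against 355 to 370.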

How the results depend on the processing

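Of 39 alternatives, 26 left out 1 mouse each and 13 changed another choice. Of 95 named genes with a net difference called, 88 stayed called in their direction under every alternative, and the other 7 (Csrp3, Gadd45b, Kcnab1, Mt1, Myh3, Pax7 and Perm1) were not called under at least 1. Leaving out each mouse in turn gave 3832 to 4624 genes called net, 1686 to 2006 higher and 2133 to 2618 lower. It gave 337 to 503 genes moved back, of which 270 to 417 had no net difference called, 33 to 56 were still on the knockout side and 18 to 37 on the other side. The low ends of the last pair came without CR MKO mouse 4 and without control-diet FLOX mouse 6. The further class held 160 to 211 genes, the left class 1722 to 2505, and Ppargc1a ranged from 0.825 to 0.894. The count for the interaction stayed at 0. Without the 3 mice rich in slow fibre transcripts, an alternative added after seeing the data, 254 genes moved back, of which 223 had no net difference called, 18 stayed on the knockout side and 13 lay on the other. At an adjusted p under 0.01 the stricter threshold gave 2782 genes called net, 1197 higher and 1585 lower. It gave 161 moved back (146 with no net difference called, 10 on the knockout side and 5 on the other), 71 further and 1407 left. Values near 0 changed sign for 3 genes, none of them called: with median centring Dgat2 was 0.011, Pnpla2 0.006 and Cox7a2 0.013, with quantile normalization Dgat2 was 0.001, and Cox7a2 was 0.014 without the 3 mice. With 1 mouse left out Dgat2 ran from -0.061 to 0.061, Pnpla2 from -0.035 to 0.019 and Cox7a2 from -0.019 to 0.015. Quantile normalization raised the share of higher genes among those called from 43.5% to 49.4%, and median centring to 47.9%.

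Array titles carry the same numbers in each group, but no pairing by number was seen. Same-numbered mice of both groups deviated together with correlations of -0.33 to 0.3, 3 of 6 over 0.1, and no mouse correlated best with its own number. So few pairs cannot exclude a weak pairing. With the replicate block 4355 genes were called net, 487 moved back and 192 further. Intensities have no detection calls here, so no limit of detection per array could be set, and the floor of each array compresses the differences of dim genes.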
